A study of Mus musculus with 10 samples.

Results

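The IFIT family (interferon-induced proteins with tetratricopeptide repeats) was followed through the 10 libraries of a mouse melanoma series. The members Ifit1, Ifit2, Ifit3 and Ifit3b were chosen by gene symbol, as 4 of the 77175 entries of the count table, and all 4 were among the 15526 genes with enough counts to be tested. RNA was sequenced in bulk from B16-F10 cells, a mouse melanoma line called WT here, and from B16-F10-OVA cells, called OVA here. OVA cells carry the lentiviral construct pLV[Exp]-Neo, in which an EF1A promoter drives ovalbumin, a model antigen, with a neomycin resistance marker. Cells of each line were either untreated or given interferon gamma (IFN-γ) at 50 ng/ml for 24 h, with 2 untreated and 3 treated libraries per line. The labels do not say whether OVA is 1 clone, whether WT cells carry a vector without ovalbumin, or whether replicates are separate cultures. The p-values therefore measure the spread between these libraries, which may be technical, and whatever differs between the lines cannot be told apart from the ovalbumin construct. Libraries held 17728722 to 19642533 counted reads. Summed melanocyte markers ran from 23096 to 24500 CPM (counts scaled to the library total), while those of macrophages and dendritic cells stayed at 2.16 to 5.04 CPM and those of T and NK cells at 0 to 0.274 CPM.

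IFIT proteins are built from tetratricopeptide repeats, bind RNA and are made in large amounts when cells sense interferon or virus. Ifit1 recognises messenger RNA whose cap lacks the methyl mark that host RNA carries on its first nucleotide, and blocks its translation, while Ifit2 and Ifit3 are known for binding RNA or other family members. Type I interferon acts through ISGF3, a complex containing Stat2 and Irf9 that binds the interferon-stimulated response element (ISRE). IFN-γ acts through the gamma-activated site (GAS) and through Irf1, which is itself induced and can bind ISRE-type sequence. The IFIT genes are mostly known as ISRE-driven targets of type I interferon, so their response to IFN-γ and their level without it are both of interest in tumour cells.

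The mouse genes lie in 1 cluster on chromosome 19. In the GENCODE M21 models of GRCm38, which is an older build than the GRCm39 used for the counts, Ifit2 spans chr19:34550694-34576419, Ifit3 chr19:34583531-34588731, Ifit3b chr19:34607970-34613401 and Ifit1 chr19:34640871-34650009, all on the + strand. The related genes Ifit1bl1 (chr19:34592891-34601956) and Ifit1bl2 (chr19:34617049-34640743) lie between them on the - strand. No exon of these 6 genes overlapped an exon of another gene in those models. Sequence upstream of the 4 members, on the + strand and from RefSeq (GRCm38.p6), is shown because it holds interferon-type motif matches that differed between the windows searched. Capitals mark ISRE-type matches (GAAA, any 2 bases and GAAA, or on the other strand TTTC, any 2 bases and TTTC) in Ifit1, Ifit3 and Ifit3b, and a GAS-type match (TTCNNNGAA) in Ifit2. The Ifit1 stretch, chr19:34640744-34640870, is the 127 bases between the GENCODE starts of Ifit1bl2 and Ifit1. The other stretches are the 250 bases before the RefSeq start, at chr19:34583279-34583528 for Ifit3, chr19:34607707-34607956 for Ifit3b and chr19:34550444-34550693 for the more upstream of the 2 starts of Ifit2.
Ifit1: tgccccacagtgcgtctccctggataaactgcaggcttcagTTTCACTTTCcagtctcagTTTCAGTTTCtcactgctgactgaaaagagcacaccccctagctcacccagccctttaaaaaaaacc
Ifit3: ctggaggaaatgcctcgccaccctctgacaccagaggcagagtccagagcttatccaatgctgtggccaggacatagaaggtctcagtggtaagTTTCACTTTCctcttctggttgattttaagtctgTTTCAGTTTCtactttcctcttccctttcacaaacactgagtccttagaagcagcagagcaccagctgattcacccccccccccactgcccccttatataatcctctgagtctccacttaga
Ifit3b: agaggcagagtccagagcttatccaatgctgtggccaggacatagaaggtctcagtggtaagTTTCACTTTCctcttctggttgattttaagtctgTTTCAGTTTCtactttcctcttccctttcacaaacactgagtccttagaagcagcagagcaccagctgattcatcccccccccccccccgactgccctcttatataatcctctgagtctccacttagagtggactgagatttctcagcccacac
Ifit2: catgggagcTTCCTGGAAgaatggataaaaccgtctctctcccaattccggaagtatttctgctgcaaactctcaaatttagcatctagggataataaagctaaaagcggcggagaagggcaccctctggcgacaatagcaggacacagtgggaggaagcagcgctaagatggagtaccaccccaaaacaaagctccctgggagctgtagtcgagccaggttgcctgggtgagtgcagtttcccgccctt

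Both strands of the 250 bases before each RefSeq start were searched for these motifs. Ifit1, Ifit3 and Ifit3b each held 2 ISRE-type matches, whereas neither Ifit2 window held one and the window shown above held 1 GAS-type match. The ISRE pair lay at -104 to -95 and -85 to -76 in Ifit1, counted from the RefSeq start with -1 as the base before it. For Ifit1 the RefSeq start is chr19:34640889, downstream of the GENCODE start at chr19:34640871. The Ifit1 stretch printed above ends just before the GENCODE start, so these positions do not count from its end. In Ifit3 the pair lay at -156 to -147 and -122 to -113, and in Ifit3b at -188 to -179 and -154 to -145. An ISRE-type match was present in 2.98% of the 32851 mouse windows of the same length, a pair or more in 0.180%, and a GAS-type match in 7.02%. The Ifit1 pair stands in the stretch shared with the oppositely directed Ifit1bl2, so it lies before the start of both genes. Of the other antiviral genes listed for comparison, 10 of the 28 with a window held an ISRE-type match (35.7%). Of the genes listed as targets of Irf1 or of GAS elements, 10 of 20 did (50%). Counted by gene in the same way, 3.46% of the 27025 mouse genes with a window held one. A match is a description of letters in a window and not a binding site, and none in the Ifit2 windows covers only those windows.

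**Figure D1:**
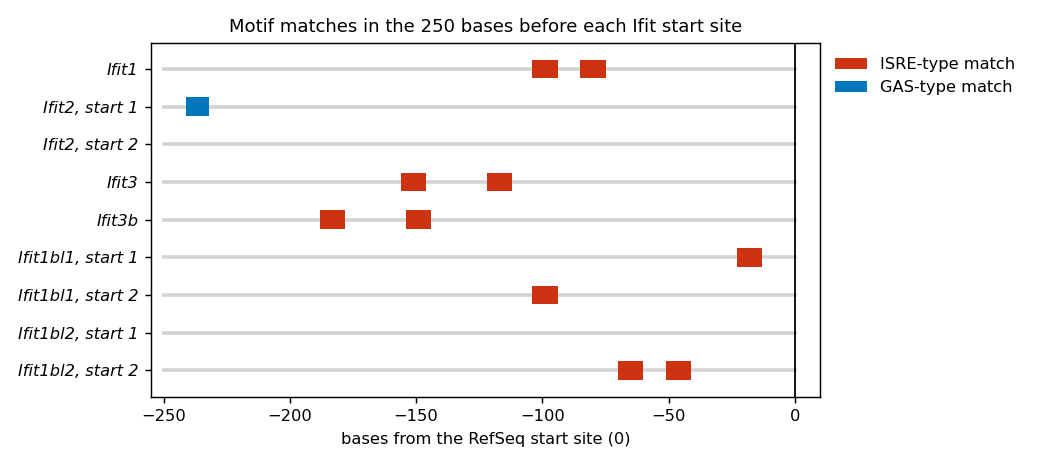
Positions of ISRE-type (red) and GAS-type (blue) matches in the 250 bases before each RefSeq start of the 6 cluster genes; the x axis gives bases from the start site and each grey line is 1 window. Ifit1, Ifit3 and Ifit3b have 2 ISRE-type matches each, and the Ifit2 windows have none.

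Ifit3 and Ifit3b are close copies of each other. Their coding sequences were identical at 1198 of 1209 aligned bases (99.09%), while the other pairs of members shared 59.3% to 63.4%. Over the 224 aligned upstream bases the Ifit3 and Ifit3b windows were 96.88% identical, and the spacing of their ISRE-type pair was the same. At a stretch length of 100 bases, 31.7% of the Ifit3 transcript positions also occurred in Ifit3b, and 27.4% of the Ifit3b positions in Ifit3. For Ifit1 that share was 3.29%, all of it with Ifit1bl2, and for Ifit2 it was 0. Neither the read length nor the treatment of reads that match several places is known from the sources used here, so the division of reads between Ifit3 and Ifit3b is uncertain and their sum is given below as well.

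Ifit1, the member that recognises incompletely methylated caps, was nearly silent in untreated WT cells and low in untreated OVA cells. Untreated WT libraries held 33 and 51 Ifit1 reads (1.82 and 2.86 CPM), and untreated OVA libraries held 177 and 181 (9.70 and 9.79 CPM). After IFN-γ the WT libraries held 4186, 4418 and 4479 reads (227, 227 and 234 CPM). The treated OVA libraries held 5733, 5694 and 5928 reads (321, 320.2 and 331 CPM). The 4 groups were fully separate, in the order untreated WT, untreated OVA, treated WT and treated OVA.

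Ifit2, an RNA-binding partner, was the one member with a substantial level in untreated cells of both lines. Its untreated levels were 57.5 and 56.6 CPM in WT (1042 and 1010 reads) and 61.1 and 63.7 CPM in OVA (1115 and 1177 reads). With IFN-γ it stood at 709, 701 and 716 CPM in WT (13088, 13619 and 13684 reads). In treated OVA cells it stood at 869.6, 898 and 882 CPM (15535, 15969 and 15818 reads). The untreated lines lay close together without overlapping, and the treated OVA libraries were all above the treated WT libraries.

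Ifit3, whose human counterpart stabilises IFIT1, went from near silence to a level like that of Ifit2. Untreated WT libraries gave 47 and 50 reads (2.60 and 2.80 CPM) and untreated OVA libraries 108 and 120 (5.92 and 6.49 CPM). Treated WT libraries gave 12433, 13313 and 13612 reads (673, 685 and 713 CPM), and treated OVA libraries 14172, 15043 and 15898 (793, 846 and 887 CPM). Both the untreated and the treated libraries of OVA were above those of WT, with the widest spread among the treated OVA libraries.

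Ifit3b, the near-copy of Ifit3, had the fewest reads of the family in every group. It had 11 and 9 reads in untreated WT (0.607 and 0.504 CPM) and 26 and 35 in untreated OVA (1.42 and 1.89 CPM). After IFN-γ it had 2915, 3001 and 3032 reads in WT (158, 154 and 159 CPM) and 3776, 3815 and 4091 in OVA (211, 214.5 and 228 CPM). The group order was that of Ifit1 and Ifit3, with no overlap. In bulk libraries such as these, fewer responding cells and less RNA per cell cannot be told apart.

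**Figure D2:**
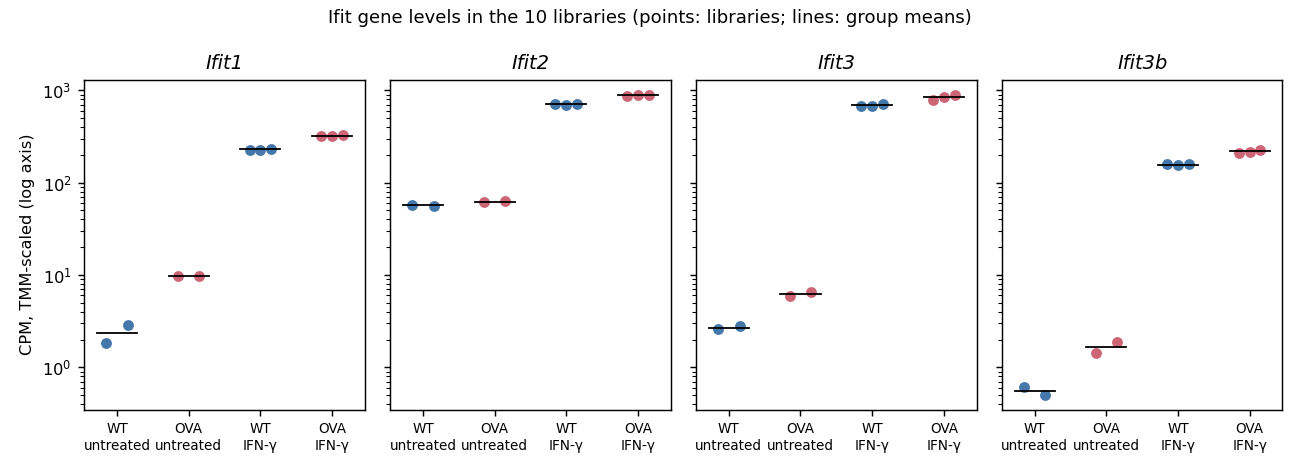
Level of each IFIT gene in the 10 libraries, in CPM with TMM factors on a log axis; points are libraries and lines are group means (2 untreated and 3 treated libraries per line). Ifit2 starts near 57 to 62 CPM in untreated cells, the other members below 10 CPM, and all 4 are higher after IFN-γ in both lines.

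The response to IFN-γ in each line shows how strongly the family was induced from these starting levels. All 4 members rose in both lines, where 24.5% of all tested genes rose in WT and 25.9% in OVA by the same test (44.2% and 48.8% changed in either direction). In WT cells Ifit1 rose 98.0-fold (6.61 log2, SE 0.14, adjusted p = 2.04e-20 by edgeR's quasi-likelihood test with Benjamini-Hochberg adjustment) and Ifit2 12.4-fold (3.63 log2, SE 0.034, adjusted p = 1.96e-21). Ifit3 rose 255-fold (8.00 log2, SE 0.15, adjusted p = 2.39e-21) and Ifit3b 279-fold (8.12 log2, SE 0.29, adjusted p = 5.79e-20). The fold order in WT was Ifit3b and Ifit3, whose 95% intervals overlapped, then Ifit1, then Ifit2. In OVA cells the folds were 33.2 for Ifit1 (5.05 log2, SE 0.075, adjusted p = 1.58e-20), 14.2 for Ifit2 (3.82 log2, SE 0.034, adjusted p = 8.42e-22), 136 for Ifit3 (7.08 log2, SE 0.10, adjusted p = 2.07e-21) and 131 for Ifit3b (7.03 log2, SE 0.17, adjusted p = 1.77e-20). By log2 fold among the 15526 tested genes, the members held places 72 (Ifit3b), 74 (Ifit3), 127 (Ifit1) and 271 (Ifit2) in WT, and 101, 98, 192 and 265 in OVA. Summing Ifit3 and Ifit3b gave 8.02 log2 in WT and 7.07 in OVA. No treated library overlapped an untreated one for any member, which held for 33% of tested genes in WT and 34% in OVA.

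Before IFN-γ, 3 of the 4 members were higher in OVA than in WT, where 2.98% of tested genes were higher by the same test, 2.55% lower and 5.53% called in either direction. Ifit1 stood at 2.34 ± 0.732 CPM in WT and 9.74 ± 0.0670 in OVA (SD, n = 2 each), which is 4.16-fold (2.06 log2, SE 0.16, adjusted p = 1.15e-07). Ifit3 was 2.30-fold higher (1.20 log2, SE 0.17, adjusted p = 0.000303) and Ifit3b 2.96-fold higher (1.57 log2, SE 0.33, adjusted p = 0.00529). For Ifit2 the ratio was 1.09 (0.13 log2, SE 0.042) and missed the threshold (adjusted p = 0.0872). Ifit3b rested on 20 reads in WT and 61 in OVA, and its adjusted p was 0.0712 without untreated WT replicate 2 and 0.0812 without untreated OVA replicate 2. The libraries of the lines did not overlap for any member, as for 26.4% of tested genes in that direction.

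After IFN-γ all 4 members were higher in OVA, by smaller folds; of all tested genes 6.36% were higher, 7.99% lower and 14.4% called in either direction. Ifit1 reached 229.5 ± 4.34 CPM in WT and 324 ± 5.78 in OVA (SD, n = 3 each), a 1.41-fold difference (0.50 log2, SE 0.032, adjusted p = 2.23e-08). Ifit2 reached 709 ± 7.67 and 883 ± 14.2 CPM, a 1.25-fold difference (0.32 log2, SE 0.025, adjusted p = 1.66e-07). Ifit3 reached 690.4 ± 20.3 and 842 ± 46.7 CPM, a 1.22-fold difference (0.29 log2, SE 0.035, adjusted p = 3.29e-05). Ifit3b reached 157 ± 2.24 and 218 ± 8.90 CPM, a 1.39-fold difference (0.47 log2, SE 0.034, adjusted p = 6.74e-08). Every treated OVA library was above every treated WT library for each member, as for 15.1% of tested genes.

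The series asks whether the lines respond differently, and the test of that difference is the OVA response minus the WT response on the log2 scale. It equals the treated line difference minus the untreated one and so uses the same libraries as both. For Ifit1 the fold in OVA was smaller by 1.56 log2 units (-1.56, 95% interval -1.90 to -1.22, adjusted p = 6.75e-05), and for Ifit3 by 0.91 (-0.91, 95% interval -1.29 to -0.54, adjusted p = 0.0267). These are 2 of the 4 members, where 0.341% of tested genes passed this test in either direction (0.264% lower and 0.0773% higher in OVA). By p, Ifit1 was in place 3 among the 15526 genes and Ifit3 in place 40. The Ifit3b estimate was -1.09 (95% interval -1.79 to -0.39, unadjusted) with an adjusted p of 0.192. For Ifit2 the estimate pointed the other way, at 0.19 (95% interval 0.087 to 0.29, unadjusted), with an adjusted p of 0.133. The Ifit3 call was lost whenever any 1 of the 4 untreated libraries was left out (adjusted p = 0.10 to 0.27, with estimates of -0.98 to -0.84) and with limma-voom (adjusted p = 0.234). With Ifit3 and Ifit3b summed the difference was -0.95 (adjusted p = 0.00776).

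**Figure D3:**
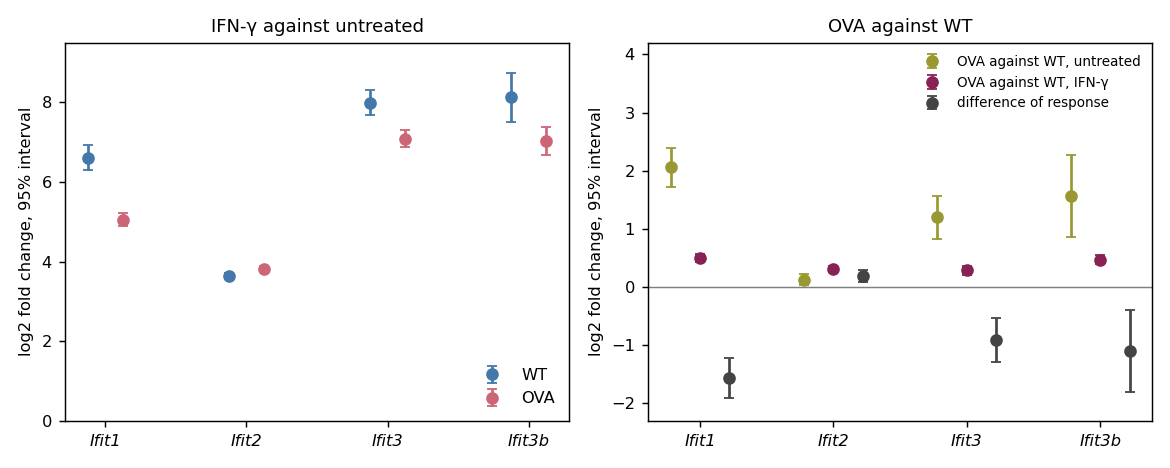
Left, log2 fold change of the 4 members with IFN-γ against untreated in WT and OVA; right, log2 fold change of OVA against WT in untreated cells, in treated cells, and the difference of the responses. Points are estimates and bars 95% intervals; the difference lies below 0 for Ifit1, Ifit3 and Ifit3b and slightly above 0 for Ifit2.

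By their estimates, a fold and a gain in CPM gave opposite orders of the lines for Ifit1, Ifit3 and Ifit3b. The fold difference missed the threshold for Ifit3b, and the Ifit3 call was lost when any untreated library was left out. The gain in mean CPM for Ifit1 was 227 in WT (SE 2.56) and 314 in OVA (SE 3.34). For Ifit3 it was 688 (SE 11.7) and 836 (SE 27.0), and for Ifit3b 156 (SE 1.29) and 216 (SE 5.14). For Ifit2 it was 652 (SE 4.46) and 821 (SE 8.32), with the higher fold in OVA as well. The untreated level was 1.02% of the treated level for Ifit1 in WT and 3.01% in OVA. It was 0.391% and 0.737% for Ifit3, 0.354% and 0.761% for Ifit3b, and 8.05% and 7.06% for Ifit2. On the CPM scale, each member gained more in OVA, and on the log2 scale only Ifit2 had the larger estimate there, in a difference that missed the threshold.

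The make-up of the family changed with IFN-γ. Ifit2 took 90.2% to 92.0% of the reads on the 4 genes in untreated WT libraries and 77.8% to 78.2% in untreated OVA libraries. After IFN-γ it took 39.3% to 40.1% in WT and 37.9% to 39.6% in OVA, with Ifit3 at 38.1% to 39.1% and 36.1% to 38.1%. The Ifit1 share was 2.91% to 4.55% in untreated WT, 11.96% to 12.4% in untreated OVA, 12.8% to 12.9% in treated WT and 14.1% to 14.6% in treated OVA. Thus, in their Ifit1 share, the untreated OVA libraries lay apart from untreated WT and near the treated libraries. In their Ifit2 share, at 77.8% to 78.2%, they lay far from the treated libraries. Ifit2 reads outnumbered Ifit3 reads 22.2 and 20.2 to 1 in untreated WT and 10.3 and 9.81 to 1 in untreated OVA. After IFN-γ the ratio was 1.01 to 1.05 in WT and 0.995 to 1.10 in OVA. The ratio of Ifit3 to Ifit3b reads overlapped between untreated and treated libraries, at 4.27 and 5.56 against 4.27 to 4.49 in WT and 4.15 and 3.43 against 3.75 to 3.94 in OVA. The summed family level was 62.6 ± 0.129 CPM in untreated WT, 1786 ± 31.9 in treated WT, 79.97 ± 2.63 in untreated OVA and 2267 ± 66.8 in treated OVA (SD, n = 2 untreated and n = 3 treated).

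**Figure D4:**
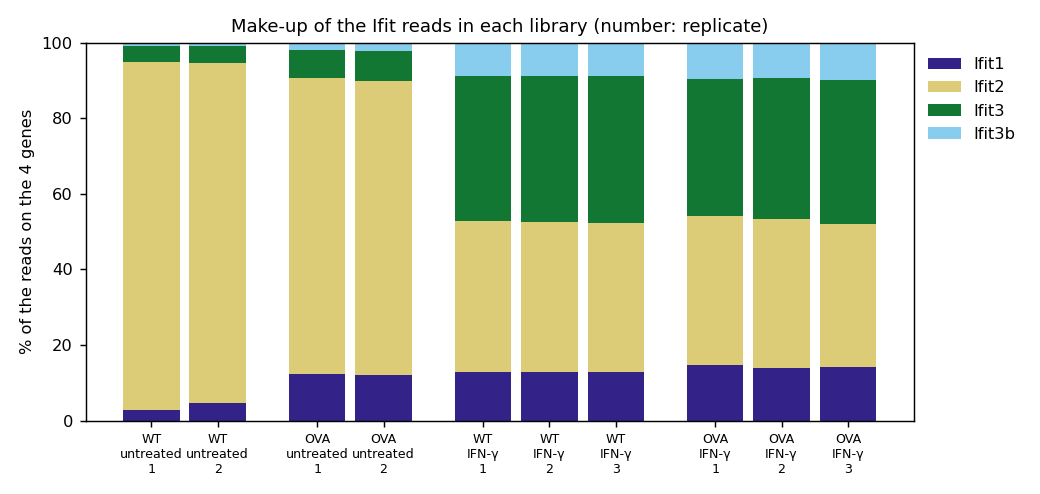
Share of each member among the reads on the 4 IFIT genes, in percent, with 1 stacked bar per library grouped by line and treatment. Ifit2 fills over 77% of every untreated bar and 37.9% to 40.1% of every treated bar, and Ifit1 takes a larger share in untreated OVA than in untreated WT.

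Levels of different genes were compared per kilobase of exon, using the GRCm38 models for length. In untreated WT the order was Ifit2 (14.5 ± 0.172 CPM per kb), Ifit3 (1.55 ± 0.0834), Ifit1 (0.881 ± 0.276) and Ifit3b (0.278 ± 0.0365). In untreated OVA it was Ifit2 (15.9 ± 0.466 CPM per kb), Ifit1 (3.67 ± 0.0252), Ifit3 (3.55 ± 0.233) and Ifit3b (0.829 ± 0.166), where Ifit1 and Ifit3 overlapped between libraries and did not differ beyond their spread. After IFN-γ Ifit3 came first, at 396 ± 11.6 CPM per kb in WT and 482 ± 26.8 in OVA. It was followed by Ifit2 (180.5 ± 1.95 and 225 ± 3.63), Ifit1 (86.4 ± 1.63 and 122 ± 2.18) and Ifit3b (78.5 ± 1.12 and 109 ± 4.45). Per length, Ifit2 led without IFN-γ and Ifit3 led with it, in both lines. A shift of reads between Ifit3 and Ifit3b would move this order.

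The Ifit1-like genes of the cluster, Ifit1bl1 and Ifit1bl2, stayed far lower. Ifit1bl1 had 0 reads in untreated libraries of both lines, 28 in the treated WT libraries together and 49 in the treated OVA libraries together. Against a floor of 3 reads per group it was at least 5.89-fold higher in WT and at least 11.2-fold higher in OVA. Ifit1bl2, which faces Ifit1 across the stretch printed above, went from 2 to 83 reads in WT, a ratio of 26.2 with a 95% counting interval of 7.02 to 220. In OVA it went from 0 to 190 reads, at least 43.4-fold higher. In treated cells Ifit1bl2 was higher in OVA (3.55 against 1.45 CPM, 1.28 log2, adjusted p = 0.00188), in the same direction as Ifit1. The counting interval and the floors reflect counting error alone. The libraries are not stated to keep strand, although Ifit1bl2 shares no exon with Ifit1 in the models used. The transcripts do share sequence: 3.29% of the 100-base stretches of Ifit1 also occurred in Ifit1bl2. At 50 bases, 7.14% occurred in Ifit1bl1 or Ifit1bl2. Ifit1 had 13083 reads in treated WT and 17355 in treated OVA, far more than these 2 genes. Whether some of their reads came from Ifit1 was not tested.

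The factors that act at IFIT promoters rose together with the family. Of 9 listed factors, 8 rose in WT and 8 in OVA and none fell, where 24.5% and 25.9% of all tested genes rose. The factor that did not pass was Irf3 in both lines, at -0.08 log2 in WT and 0.04 in OVA, which is known to be activated by phosphorylation. Stat2 rose by 4.28 log2 in WT and 4.26 in OVA, and Irf9, the DNA-binding part of ISGF3, by 3.68 and 3.76. Irf1 rose by 6.04 and 5.99, and Irf7, which sustains interferon production, by 5.85 and 6.52. None of the 9 passed the test of the difference of responses, which 0.341% of all tested genes passed. Between untreated lines 1 of the 9 was higher in OVA and 0 were lower, where 2.98% of all tested genes were higher and 2.55% lower. Among the factors that missed the threshold, OVA against WT, Irf9 stood at -0.01 log2 (adjusted p = 0.991), Irf1 at -0.04 (adjusted p = 0.884) and Stat2 at 0.11 (adjusted p = 0.585). In treated cells Irf7 alone was higher in OVA, by 0.34 log2 (adjusted p = 2.05e-05), where 6.36% of all tested genes were higher.

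Upstream of these factors, the interferon genes themselves were almost without reads. All 21 listed interferon genes were too low to be tested. They summed to 1 read in untreated WT, 15 in treated WT, 4 in untreated OVA and 13 in treated OVA over all libraries of a group, and 14 of them had no read in any library. Ifnb1, a type I interferon, had 1 read, in treated OVA. Of 9 receptor and kinase genes, 5 rose and 4 fell in WT, and 4 rose and 4 fell in OVA. Among all tested genes, 24.5% rose and 19.7% fell in WT, and 25.9% rose and 22.9% fell in OVA. Ifnar2, a type I receptor chain, rose by 0.87 and 0.80 log2 and Jak2, a kinase of the IFN-γ receptor, by 0.91 and 0.86. The IFN-γ receptor chain Ifngr2 fell by 0.46 and 0.53. None of these 9 passed the test between untreated lines or that of the response, against 5.53% and 0.341% of all tested genes. In treated cells Jak1 (-0.11, adjusted p = 0.0368) and Ifnar1 (-0.11, adjusted p = 0.0402) were slightly lower in OVA, where 7.99% of all tested genes were lower.

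The IFIT genes were then set beside 40 other interferon antiviral genes, of which 39 were tested. All 39 rose in both lines, with a median of 6.09 log2 in WT and 5.46 in OVA over the 37 with reads in all 4 groups. Of all tested genes, 24.5% rose in WT and 25.9% in OVA. The median over all tested genes was 0.011 in WT and 0.0018 in OVA. In untreated cells 14 of the 39 were higher in OVA and none lower, against 2.98% and 2.55% of all tested genes. The median was 0.55 log2 over the 37. In treated cells 26 were higher and none lower, against 6.36% and 7.99% of all tested genes, with a median of 0.24. Rsad2 (viperin), which makes a chain-terminating nucleotide, was 0.59 log2 higher in untreated OVA (adjusted p = 3.08e-05) and 0.38 higher in treated OVA (adjusted p = 1.23e-08). Usp18, which removes Isg15 from proteins, was 0.82 log2 higher in treated OVA (adjusted p = 9.22e-11). Isg15 itself stood 0.80 higher in untreated OVA without passing (adjusted p = 0.159). For the difference of responses 4 of the 39 were lower in OVA and none higher, against 0.264% and 0.0773% of all tested genes. These 4 were chosen for mention after their values were seen. They were the RNA sensors Ifih1 (-0.75, adjusted p = 0.00290) and Rigi (-0.65, adjusted p = 0.00431), and the oligoadenylate synthetases Oas1a (-1.29, adjusted p = 0.0189) and Oas1g (-2.21, adjusted p = 0.00290).

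**Figure D5:**
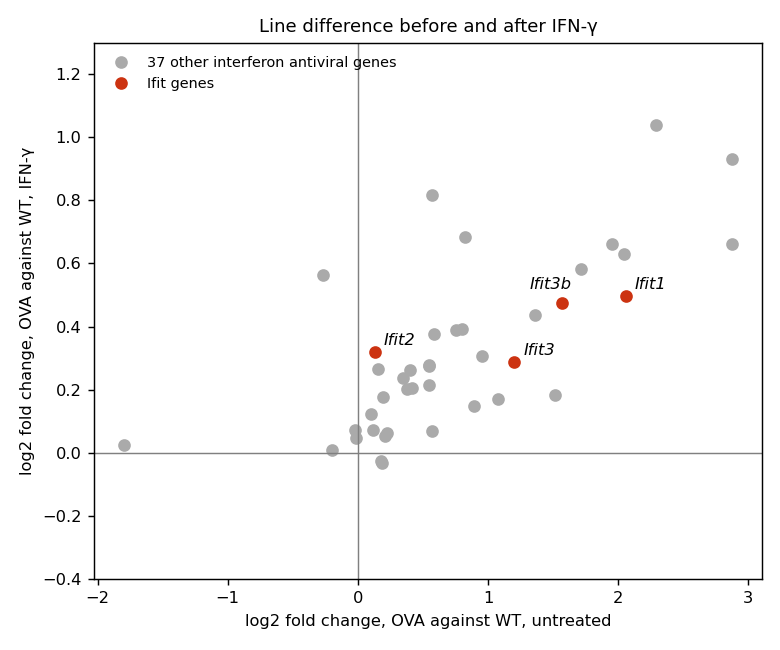
Line difference (log2, OVA against WT) in untreated cells on the x axis and in IFN-γ-treated cells on the y axis, for the 4 IFIT genes (red) and the 37 other antiviral genes with reads in all groups (grey). Ifit1, Ifit3 and Ifit3b lie at 1.20 to 2.06 on the x axis and 0.29 to 0.50 on the y axis, and Ifit2 lies near 0 on the x axis at 0.13.

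Genes known as targets of Irf1 or of GAS elements formed the other comparison list. All 23 tested members rose in both lines, where 24.5% of all tested genes rose in WT and 25.9% in OVA. In untreated OVA 5 were higher and none lower, against 2.98% and 2.55% of all tested genes. The 5 were Irgm1, Irgm2, Gbp7, Cxcl10 and Tap1. In treated OVA 6 were higher and 4 (Gbp4, Gbp5, Gbp7 and Socs3) lower, against 6.36% and 7.99% of all tested genes. The difference of responses was lower in OVA for 4 of the 23 and higher for none, against 0.264% and 0.0773% of all tested genes. These 4 were the immunity-related GTPase Irgm1 (-0.44, adjusted p = 0.0231), the peptide transporter subunit Tap1 (-1.12, adjusted p = 0.0156), the guanylate-binding protein Gbp7 (-1.17, adjusted p = 0.0189) and the chemokine Cxcl10 (-0.79, adjusted p = 0.00398). A smaller fold in OVA was therefore called in both comparison lists as well as in Ifit1 and Ifit3. B2m, the light chain of class I molecules, stood at 0.05 log2 between the untreated lines (adjusted p = 0.552).

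Ifit1 binds RNA whose cap lacks a methyl mark, so the cap-forming and decapping enzymes were examined as well. Of 9 listed, 2 rose in WT, a share near the 24.5% of all tested genes, and 4 in OVA, where 25.9% of all tested genes rose, and none fell. Cmtr1, which adds the first methyl mark on the sugar next to the cap, rose from 141 to 269 CPM in WT (0.93 log2, adjusted p = 1.16e-12) and from 136 to 268 CPM in OVA (0.97 log2, adjusted p = 6.78e-13). The decapping enzyme Dcp2 rose by 1.07 and 0.93 log2. The capping enzyme Rngtt (0.14 log2) and the cap methyltransferase activator Ramac (0.20 log2) passed in OVA, with 0.05 and 0.14 in WT, where they missed the threshold. None of the 9 passed a test between the lines, in response or level. Of all tested genes, 0.341% passed for the response, 5.53% for the untreated level and 14.4% for the treated level. Among 16 subunits of eIF3 and cap-binding translation factors, which IFIT proteins are known to contact, 8 rose and 2 fell in each line. The amounts were small, such as 0.16 log2 for Eif3c and -0.23 for Eif4g1 in WT. Over all tested genes, 24.5% rose and 19.7% fell in WT, and 25.9% rose and 22.9% fell in OVA. The list was not tested as a set.

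The genes whose profiles lay nearest each member were found by the root mean square difference of centred log2 CPM over the 10 libraries. Ifit1 was nearest Oas1g and Oas1a (0.22 each), then Oasl1 (0.34), Trim34a (0.44) and Ddx60 (0.44). Ifit2 was nearest Herc6 (0.068), B2m (0.11), Nmi (0.12), Psme1 (0.13) and Irf9 (0.13). Ifit3 was nearest its copy Ifit3b (0.15), followed by Tap1 (0.22), Irgm1 (0.23), Rtp4 (0.26) and Mx2 (0.32). For Ifit3b the order after Ifit3 was Rtp4 (0.26), Trim12c (0.29), Irgm1 (0.32) and Tap1 (0.34). Apart from Ifit3 and Ifit3b, the members lay farther from each other, with 1.20 between Ifit1 and Ifit2, 0.88 between Ifit1 and Ifit3, and 1.88 between Ifit2 and Ifit3. Oas1g was 2.87 log2 higher in untreated OVA than in untreated WT (adjusted p = 1.73e-05), on 9 reads in WT and 69 in OVA, and Herc6 0.19 higher (adjusted p = 0.0374). The closeness includes the shift shared by all IFN-γ-induced genes, and Pearson correlation over the same 10 libraries exceeded 0.99 for 45 genes with Ifit1, 360 with Ifit2, 327 with Ifit3 and 272 with Ifit3b. These libraries form treated and untreated clusters, so the measure is a description only.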

How the data were processed

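The authors deposited raw read counts per Ensembl gene. GRCm39, HISAT2 2.0.5 and featureCounts 1.6.0 are listed in the submitters' processing notes. Which annotation release and strand setting were used is not stated, and the labels describe poly-A selected RNA without naming a strand-specific kit. Their extraction protocol mentions tissue, although every other label names a cell line. Ovalbumin itself was not analysed here.

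Counts were tested two-sided with edgeR 4.0.16 (R 4.3.3), using TMM factors, filterByExpr and the quasi-likelihood test. The 4 groups of all 10 libraries were fitted together. Benjamini-Hochberg adjustment covered all 15526 tested genes (threshold 0.05). SEs are in log2 units, 95% intervals are unadjusted, and profile distances used a prior count of 2. The pipeline was tested on simulated data. The alternatives comprised limma-voom (limma 3.58.1), the Wald test and size factors of DESeq2 1.42.0, library totals, other filters on low counts, a replicate block, fits limited to the compared groups, a threshold of 0.01, Ifit3 summed with Ifit3b, and leaving out each library.

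Genes were named by rule: the members, the cluster genes, 10 pathway genes, the 4 most abundant tested genes of each list and the 5 nearest profiles per member, of which a selection is given and 1 is not reported here. Irf3, Ifih1, Rigi, Irgm2, Gbp4, Gbp5, Gbp7, Socs3, Cxcl10, Ramac, Ifnar2, Ifngr2 and Ifnb1 were named after their values were seen. Dcp2, Rngtt, Jak1, Jak2 and Ifnar1 fall under the rule as abundant genes of their lists. The members and lists were chosen with earlier results of these data known. RefSeq upstream sequences (GRCm38.p6) were available for all 6 cluster genes.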

Additional observations from a re-analysis of the deposited data

Results flagged for a closer look

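The difference of the IFN-γ response between the lines passed the test itself for Ifit1, at -1.56 log2 (OVA minus WT, adjusted p = 6.75e-05 by edgeR's quasi-likelihood test with Benjamini-Hochberg adjustment), and for Ifit3, at -0.91 (adjusted p = 0.0267). Ifit1 rose 98.0-fold in WT and 33.2-fold in OVA, and Ifit3 255-fold and 136-fold. Both had a higher untreated level in OVA, and both gained more CPM in OVA.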

How the results depend on the processing

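Of 470 recomputed values over the 4 members and 5 comparisons, 456 kept their direction and their side of the threshold or, for a count of members, stayed within 1.5 times the reported count. None reversed, and 14 crossed a threshold or left that range. Each member stayed higher with IFN-γ in both lines, and in treated OVA, under every alternative run for it. Ifit3b has no value of its own where it was summed with Ifit3, so 3 genes were counted there. The count of members that differed in response went from 2 to 3 with the DESeq2 Wald test, and to 1 with limma-voom, with an adjusted p under 0.01 and without any 1 of the 4 untreated libraries (range 1 to 2 when each library was left out). Ifit3 was the lost one: its difference was -0.91 with limma-voom (adjusted p = 0.234) and ran from -0.98 to -0.84 with each library left out. The Ifit1 difference ran from -1.92 to -1.27 with each library left out and stayed called. The Ifit2 difference passed with the DESeq2 Wald test (0.19, adjusted p = 0.0492). The untreated line difference of Ifit3b ran from 1.35 to 1.76 with each library left out, and members higher in untreated OVA numbered 2 to 3. Over all genes, the difference of responses gave 53 calls, and 284 without a filter, 103 with DESeq2, 165 with the replicate block and 21 at an adjusted p under 0.01. Untreated lines gave 859 calls, 552 with DESeq2 and 381 at 0.01, and treated lines 2229, 1454 and 1099.

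Libraries of different groups share only a replicate number: over 13 pairs with the same number, correlations of deviations ran from -0.07 to 0.03. With the replicate block no call of a member changed, with adjusted p of 7.06e-05 for the Ifit1 difference and 0.00218 for that of Ifit3. Untreated groups of 2 libraries, and 9 to 35 reads of Ifit3b in each untreated library, limit the untreated comparisons. The causes of the changes across settings were not tested.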
